A study of Mus musculus with 8 samples.

Results

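Cytochrome P450 genes encode heme enzymes that insert oxygen into their substrates, and 85 of them were read in the olfactory mucosa of newborn mice. The genes were taken by their symbols: every row of the arrays that named exactly 1 gene whose symbol was Cyp followed by a digit, without the -ps ending of pseudogenes. This gave 85 rows for 85 genes out of 21789 rows that named 1 gene, and out of 35557 rows in all. No gene had more than 1 such row. A further 7 rows named several genes and 2 rows named pseudogenes, and neither kind was counted.

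The mucosa came from 8 mice at postnatal day 1 of a mixed 129 and C57BL/6J background, with 1 mouse on each microarray. The 4 knockouts were labelled OmpCre:Emx2(fl/fl). Emx2 encodes a homeodomain transcription factor of olfactory sensory neurons (OSNs), and in these mice both of its copies could be deleted by a Cre recombinase made from the Omp locus. Controls 1 to 3 were labelled OmpCre:Emx2(fl/+), so they carried the same Cre and 1 floxed copy, and control 4 was labelled Emx2(fl/fl) and carried no Cre. The Omp locus is known to be active in mature OSNs. Which cells recombined was not measured here, and the tissue on the array held all cells of the mucosa. Values are log2 signals, in which a difference of 1 is a doubling, and a difference is knockout minus control with its standard error (SE) unless an SD is named.

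In the nose, P450 enzymes are known above all from cells that are not neurons. Sustentacular cells, the supporting cells of the olfactory epithelium, and the secretory cells of Bowman's glands below it hold enzymes of the Cyp1 to Cyp3 families that oxidise odorants, drugs and inhaled toxicants. Other P450 families make or remove the body's own signals: steroid hormones, retinoic acid, bile acids, vitamin D and fatty acid derivatives. In whole tissue, fewer cells of a type and less RNA per cell cannot be told apart.

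The arrays were alike in scale, with medians from 8.64 to 8.68 and correlations between arrays from 0.985 to 0.994. Control 2 stood apart, at 32.9 on the first principal component where the other 7 arrays lay between -11.83 and 6.11. Emx2 itself read between 10.58 and 10.89 in the controls and between 10.14 and 10.34 in the knockouts, a difference of -0.55 ± 0.08. Every knockout lay below every control (limma, unadjusted p = 7.4e-05), though the difference did not pass the adjusted test (limma, adjusted p = 0.201). The tissue held its supporting cells: the mean of 16 sustentacular markers that are not P450 genes (of 18 listed) lay between 11.44 and 11.49 in the controls and between 11.40 and 11.50 in the knockouts. The mean of 24 mature OSN markers lay between 11.30 and 11.59 in the controls and between 11.32 and 11.53 in the knockouts. Of these 24 markers 16 had a lower and 8 a higher mean in the knockouts. At an unadjusted p under 0.05, 5 were lower and 1 was higher, beside 2.55% and 2.62% of all clusters. None of them passed the adjusted test (limma, smallest adjusted p = 0.459). The number of arrays limits the precision.

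No P450 gene passed the test of a difference between knockouts and controls. After adjustment over all clusters 0 of the 85 genes passed the limma test at 0.05, as did 0 of all 21789 clusters tested (0%), and the methods' t-test also called 0 genes. At an unadjusted p under 0.05, 0 P450 genes were lower in the knockouts, beside 2.55% of all clusters, and 2 were higher (2.35% of the 85), beside 2.62% of all clusters. These 2 were Cyp2r1 and Cyp39a1. Leaving out 1 mouse at a time gave 0 to 3 lower genes, with 3 without control 2. It gave 0 to 4 higher genes, with 4 without control 1. The shares of all clusters in these refits are not given here, so the counts have no background beside them. In no P450 gene did the 4 knockouts lie wholly below or wholly above the 4 controls, which held for 1.48% and 1.62% of all clusters. The methods' t-test gave 0 P450 genes at an unadjusted p under 0.05 in either direction.

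The differences were small. In 68 of the 85 genes (80%) the group means lay within 0.1 log2 of each other, as in 75.5% of all clusters, and in 78 genes the 95% interval of the difference lay within 0.5 log2 on either side of 0. The median difference of the P450 genes was -0.011, beside 0.0024 over all clusters. A lower mean in the knockouts was found for 49 P450 genes (57.6%), beside 48.6% of all clusters. This split moved with the scaling of the arrays. It was 58 genes (68.2%, beside 55.2%) after quantile normalization, 40 genes (47.1%, beside 38.9%) with arrays scaled to the sustentacular markers and 13 genes (15.3%, beside 19.8%) with arrays scaled to the mature OSN markers.

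**Figure D1:**
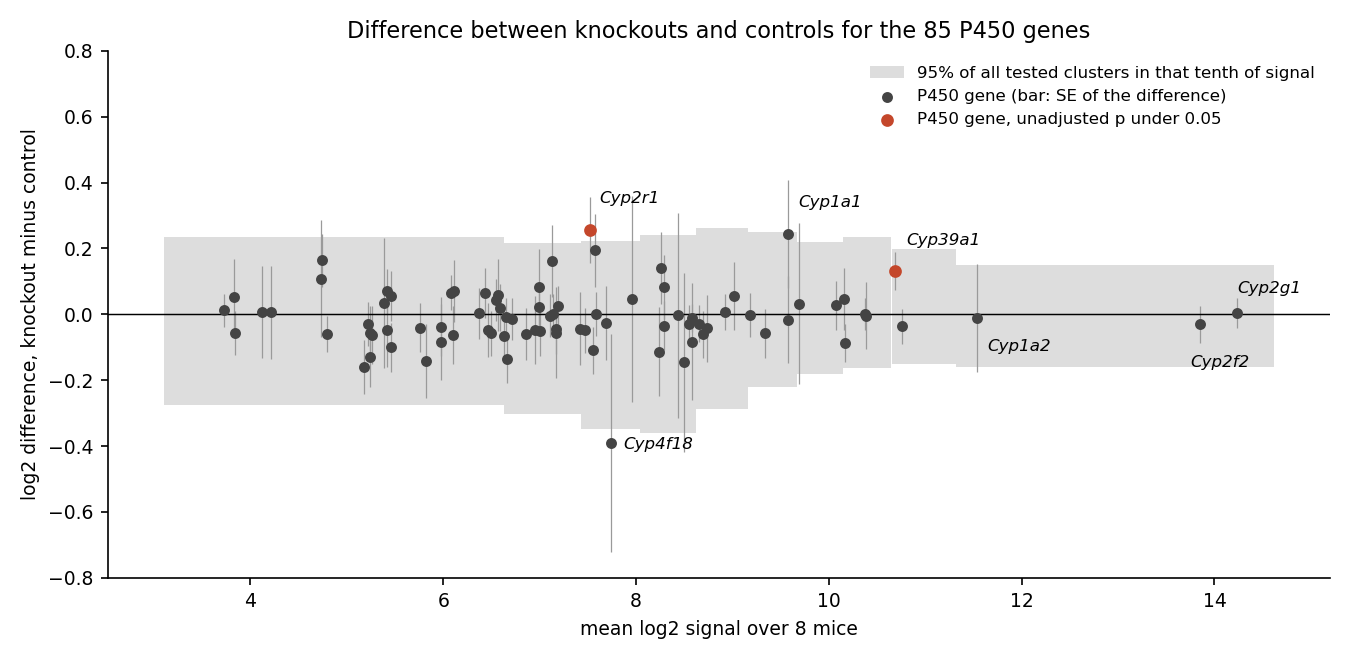
Each point is 1 of the 85 P450 genes, placed by its mean log2 signal over the 8 mice (horizontal axis) and by its log2 difference, knockout minus control (vertical axis), with the SE as a bar. Grey boxes span the middle 95% of all tested clusters in each of 10 bins of signal, and the points in red are Cyp2r1 and Cyp39a1, the 2 genes with an unadjusted p under 0.05. Of the 85 genes, 68 lie within 0.1 of 0.

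The brightest P450 signals came from the enzymes known as nasal ones. The order by signal is a description, since clusters differ in their probes and a brighter cluster need not mean more RNA. Cyp2g1, an enzyme first known from the olfactory mucosa, read 14.31, 14.22, 14.17 and 14.22 in controls 1 to 4 and 14.21, 14.29, 14.22 and 14.22 in knockouts 1 to 4. The 8 mice spanned 0.14, the groups overlapped, and the difference was 0.0042 ± 0.045 with a 95% interval from -0.098 to 0.11. Cyp2f2, which oxidises naphthalene in club cells of the airway and in nasal epithelium, read 13.89, 13.93, 13.89 and 13.75 in the controls and 13.76, 13.90, 13.78 and 13.89 in the knockouts. Its difference was -0.031 ± 0.057, with the 95% interval from -0.16 to 0.099 and the lowest and the highest mouse both among the controls.

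Cyp1a2, the caffeine-metabolising enzyme of liver that is also known from olfactory mucosa, was the third in brightness of the 85 genes and varied more. It read 11.996, 11.35, 11.48 and 11.36 in the controls and 11.30, 11.66, 11.79 and 11.38 in the knockouts. Control 1 was the highest mouse and knockout 1 the lowest, and the difference was -0.010 ± 0.16. Cyp1a1, its relative induced by the aryl hydrocarbon receptor in many tissues, read 9.69, 9.41, 9.10 and 9.64 in the controls and 9.62, 9.79, 9.37 and 10.02 in the knockouts. The highest mouse was a knockout and the lowest a control, and the difference of 0.24 ± 0.16 did not pass (limma, adjusted p = 0.910). It was 0.058 with Y-linked signal in the model. Cyp1b1 completed the family at 8.26 on average, with a difference of 0.14 ± 0.11. The receptor gene Ahr read between 10.50 and 10.81 in the controls and between 10.41 and 10.66 in the knockouts, a difference of -0.077 ± 0.080.

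The start regions of the brightest genes with an entry in the RefSeq promoter table of GRCm38.p6 are shown so that the sequence can be read beside the signals. Each window holds 250 bases before the transcription start and 50 after it, 5′ to 3′ on the gene's own strand, and capitals mark a TATAAA match. Cyp2f2 lies on the plus strand at chr7:27119705-27120004 and Cyp1a2 on the minus strand at chr9:57683606-57683905. Cyp2g1 was not in the table.
Cyp2f2: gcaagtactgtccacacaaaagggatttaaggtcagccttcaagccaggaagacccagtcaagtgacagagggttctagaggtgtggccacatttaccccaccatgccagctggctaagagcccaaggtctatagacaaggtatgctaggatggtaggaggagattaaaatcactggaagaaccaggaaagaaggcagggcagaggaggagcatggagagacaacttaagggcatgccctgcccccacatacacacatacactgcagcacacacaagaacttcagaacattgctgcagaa
Cyp1a2: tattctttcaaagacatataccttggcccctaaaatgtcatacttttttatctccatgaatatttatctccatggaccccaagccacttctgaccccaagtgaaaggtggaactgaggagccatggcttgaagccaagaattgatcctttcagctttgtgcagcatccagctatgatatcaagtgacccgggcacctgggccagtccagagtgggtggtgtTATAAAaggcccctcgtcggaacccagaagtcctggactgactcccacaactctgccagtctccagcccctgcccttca
The Cyp1a2 window holds the TATA motif with its first base 29 bases before the start, and the Cyp2f2 window holds none. Windows were found for 64 of the 85 genes (72 windows) and were searched on both strands. The motif TATAAA was found in 25 of the 72 windows (34.7%), beside 13.6% of all 32851 windows in the table. The homeodomain core TAATTA, bound by many factors of the class of Emx2, was found in 4 windows of 3 genes (5.56%, beside 5.29% of all windows), namely Cyp2d26, Cyp2j13 and Cyp3a11. The Olf1/Ebf motif of OSN genes (TCCC and GGGA with 2 bases between) was found in 0 of the 72 windows, beside 0.904% of all windows. The motifs do not overlap one another in their letters, and a match is only a match of letters.

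Both bright Cyp2 genes belong to a row of neighbouring genes on chromosome 7. Of the 85 genes, all 11 of the 2a, 2b, 2f, 2g, 2s and 2t subfamilies lie there. Their order in the RefSeq gene table is Cyp2s1, Cyp2b10, Cyp2b13, Cyp2b9, Cyp2b23, Cyp2b19, Cyp2g1, Cyp2a22, Cyp2a12, Cyp2f2 and Cyp2t4. This order leaves out genes without a row of their own, such as Cyp2a5 and Cyp2a4. The mean signals of the 11 genes ran from 3.73 for Cyp2a22 to 14.23 for Cyp2g1. These lie next to each other in this order, at opposite ends of the scale. Of the 11 genes 6 had a higher and 5 a lower mean in the knockouts, with a median difference of 0.0030 and 0 at an unadjusted p under 0.05. Cyp2s1, an enzyme of epithelia, read 10.31, 10.65, 10.50 and 10.12 in the controls and 10.41, 10.39, 10.40 and 10.36 in the knockouts. The controls spanned the whole range and the knockouts sat close together inside it, and the difference was -0.0039 ± 0.10. Cyp2b9, which in liver is higher in females, had the smallest p of the row at 0.19 ± 0.11 (limma, adjusted p = 0.910). Its highest mouse was knockout 2 at 7.96, its lowest was control 2 at 7.38, and the difference was 0.081 with Y-linked signal in the model.

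A row that named both Cyp2a5 and Cyp2a4 was not counted among the 85 genes, because it cannot tell these coumarin- and steroid-hydroxylating enzymes apart. It read between 13.82 and 14.02 in the controls and between 13.81 and 13.87 in the knockouts, and its difference was -0.038 ± 0.055. Its mean signal of 13.87 was above that of Cyp2f2 (13.85), so the ranks by brightness hold for the 85 genes only.

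**Figure D2:**
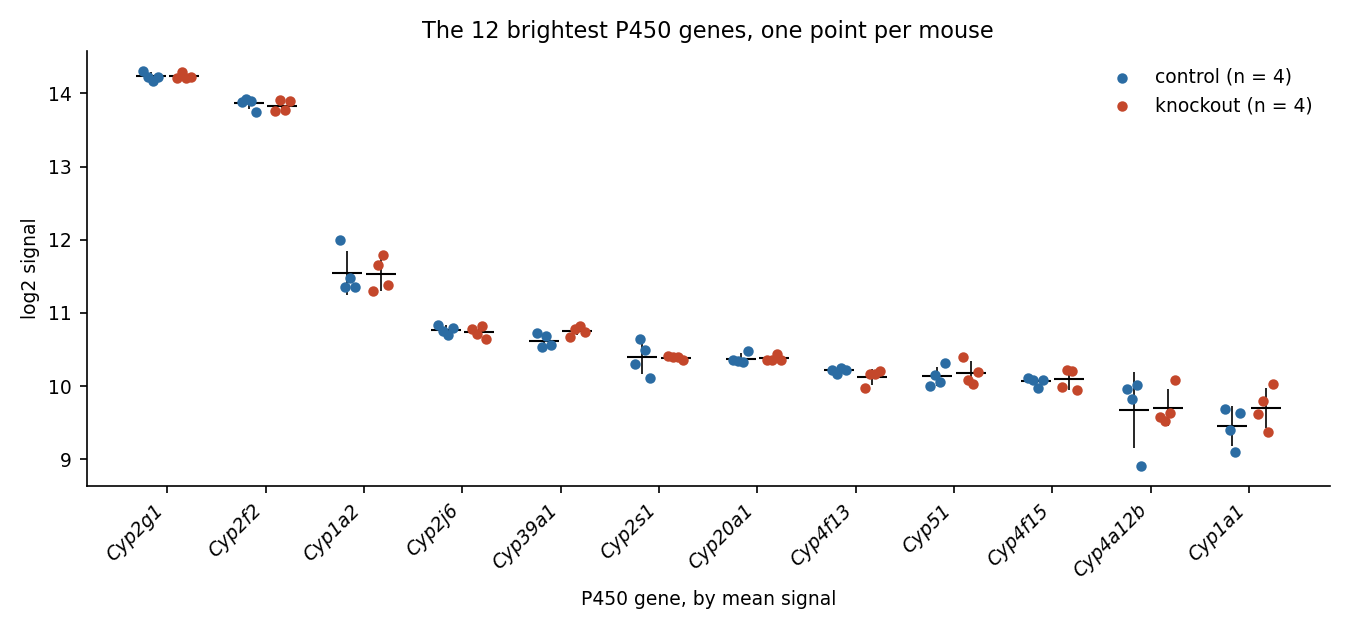
Log2 signal (vertical axis) of the 12 P450 genes with the highest mean signal, with controls in blue and knockouts in red, 1 point per mouse and 4 mice per group. The horizontal tick and bar give the mean and SD of a group. In every one of the 12 genes the groups overlap, Cyp2g1 and Cyp2f2 lie near 14, and Cyp4a12b has 1 control at 8.90 far below the other mice.

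The rest of the foreign-compound enzymes of the Cyp2 family, 23 genes of the 2c, 2d and 2e subfamilies, were mostly dim, with mean signals from 3.83 to 9.01. In liver these are major drug-metabolising enzymes. The brightest was Cyp2d22, which read between 8.85 and 9.21 in the controls and between 8.82 and 9.23 in the knockouts (difference 0.055 ± 0.10). The smallest p belonged to Cyp2c65, at 5.31 in the controls and 5.18 in the knockouts on average, with a difference of -0.13 ± 0.09 (limma, adjusted p = 0.910). Of the 23 genes 13 had a lower mean in the knockouts and 10 a higher one, and 0 reached an unadjusted p under 0.05. In the 6 genes of the Cyp3a subfamily, which oxidises many drugs and steroids, 3 were lower and 3 higher on average. Cyp3a16 had their smallest p, with 4.66 in the controls, 4.83 in the knockouts and a difference of 0.16 ± 0.08 (limma, adjusted p = 0.910).

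Y-linked genes gave a rough mark for a dim signal. In 4 mice (control 1 and knockouts 1, 2 and 4) the 3 Y-linked clusters were lower than in the other mice and read between 6.85 and 8.61, with a median of 7.36. The upper end came from control 1, whose mean over the 3 clusters was 8.09 beside 7.05, 7.27 and 7.51 in the 3 knockouts. Probes differ between clusters, and 65 of the 85 P450 genes had a mean at or below 8.61, while 55 had one at or below 7.75, the highest reading in the 3 knockouts. The 11 liver genes that are no P450 genes had mean signals from 6.31 to 8.24. Their list mean was highest in control 4, at 7.68 beside 7.15 to 7.43 in the other mice, with 2 of the 11 highest there. Cyp7a1 at 5.22, Cyp3a11 at 4.21 and Cyp11b1 at 6.63, known from liver or adrenal, lay below 6.85. Other such genes lay above it, among them Cyp11b2 at 6.86 and Cyp8b1 at 7.19. Whether differences between mice in such genes were of RNA or of background was not tested.

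The 22 genes that act on fatty acids and eicosanoids were of the Cyp4 family and the Cyp2j and Cyp2u subfamilies. Of these 22, 5 were among the 15 P450 genes above the median signal of all clusters tested. Cyp2j6, an epoxygenase, read 10.84, 10.76, 10.70 and 10.79 in the controls and 10.77, 10.71, 10.82 and 10.65 in the knockouts, with a difference of -0.037 ± 0.052. Cyp4f13 read 10.22, 10.16, 10.25 and 10.22 in the controls and 9.97, 10.17, 10.17 and 10.21 in the knockouts. Knockout 1 was lowest, the other 3 knockouts lay among the controls, and the difference was -0.087 ± 0.059. Cyp4f15 lay between 9.97 and 10.12 in the controls and between 9.95 and 10.21 in the knockouts, with a difference of 0.027 ± 0.074. Of the 22 genes 14 had a lower mean in the knockouts and 8 a higher one, with a median difference of -0.034 and 0 at an unadjusted p under 0.05. The smallest p was that of Cyp2j11, at 5.26 in the controls and 5.10 in the knockouts (-0.16 ± 0.08, limma, adjusted p = 0.910), and next among the lower genes came Cyp4f39, at 7.61 and 7.50 (-0.11 ± 0.07). Both lay below the upper mark of the Y-linked clusters.

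The 2 genes with an unadjusted p under 0.05, 2.35% of the 85, fell in separate substrate groups. The share of all clusters higher at that p was 2.62%. Cyp39a1, which hydroxylates an oxysterol on the way to bile acids, read 10.72, 10.53, 10.68 and 10.56 in the controls and 10.68, 10.78, 10.82 and 10.74 in the knockouts. Of the knockouts, 3 lay above every control and knockout 1 lay below 2 of them. The difference was 0.13 ± 0.06, a ratio of 1.10 (limma, adjusted p = 0.910). Cyp2r1, which 25-hydroxylates vitamin D, read 7.39, 7.29, 7.55 and 7.34 in the controls and 7.71, 7.76, 7.36 and 7.77 in the knockouts. Here too 3 knockouts lay above every control, and knockout 3 lay among the controls. The difference was 0.26 ± 0.10, a ratio of 1.19 (limma, adjusted p = 0.910). The mean signal of Cyp2r1 was 7.52, below the upper mark of the Y-linked clusters.

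With the low or high Y-linked signal of each mouse in the model, the difference was 0.16 for Cyp2r1 and 0.12 for Cyp39a1, and neither had an unadjusted p under 0.05. The 3 knockouts that read high in Cyp2r1 were those with low Y-linked signal, while knockout 3 and 3 of the 4 controls had high Y-linked signal. Control 1, also low in Y-linked signal, read 7.39 in Cyp2r1, among the controls. The part of sex in this difference was not tested beyond that model. Neither had an unadjusted p under 0.05 when control 2, control 4, knockout 2 or knockout 4 was left out alone. Without control 2 the differences were 0.22 for Cyp2r1 and 0.10 for Cyp39a1. Without knockout 3 the difference of Cyp2r1 was 0.35 ± 0.07, and its adjusted p of 0.394 was the lowest of any P450 gene under any setting.

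The other P450 genes of vitamin D, of bile acids and oxysterols and of cholesterol synthesis were nearer to 0. Cyp27b1, which makes the active form of vitamin D, lay between 6.91 and 7.15 in the controls and between 6.93 and 7.10 in the knockouts (0.023 ± 0.066). The vitamin D receptor gene Vdr differed by 0.13 ± 0.13. Among the 6 genes of bile acids and oxysterols 3 were higher and 3 lower on average. Cyp51, the only P450 gene of cholesterol synthesis, read 10.01, 10.15, 10.05 and 10.31 in the controls and 10.39, 10.09, 10.03 and 10.20 in the knockouts, and differed by 0.046 ± 0.093. Cyp20a1, whose substrate is not settled, was among the steadiest genes, between 10.33 and 10.48 in the controls and between 10.36 and 10.44 in the knockouts (0.0016 ± 0.049). Cyp2ab1, also without a settled substrate, differed by -0.058 ± 0.067.

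The P450 genes of steroid hormone synthesis and of retinoic acid removal all had a lower mean in the knockouts, by amounts that did not pass. The 5 steroid genes had mean signals from 6.63 to 6.95, below the upper mark of the Y-linked clusters, and a median difference of -0.058. Cyp17a1 was their brightest, at 6.98 in the controls and 6.93 in the knockouts (-0.047 ± 0.10). Cyp11a1, which cuts the side chain of cholesterol, read 6.64, 6.59, 6.86 and 6.83 in the controls and 6.70, 6.55, 6.59 and 6.53 in the knockouts. The difference was -0.14 ± 0.07 with overlapping groups (limma, adjusted p = 0.910). The 3 retinoic acid genes had a median difference of -0.049. Cyp26b1 read 8.59, 8.63, 8.89 and 8.79 in the controls and 8.74, 8.68, 8.62 and 8.62 in the knockouts, a difference of -0.060 ± 0.071. The direction depended on the setting. With arrays scaled to the mature OSN markers, 2 of the 5 steroid genes and 0 of the 3 retinoic acid genes had a lower mean in the knockouts, and with arrays scaled to the sustentacular markers 4 and 2 did. With Y-linked signal in the model 3 of the 5 and 1 of the 3 did, with medians of -0.0091 and 0.016, and without control 3 it was 3 of the 5 and all 3.

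**Figure D3:**
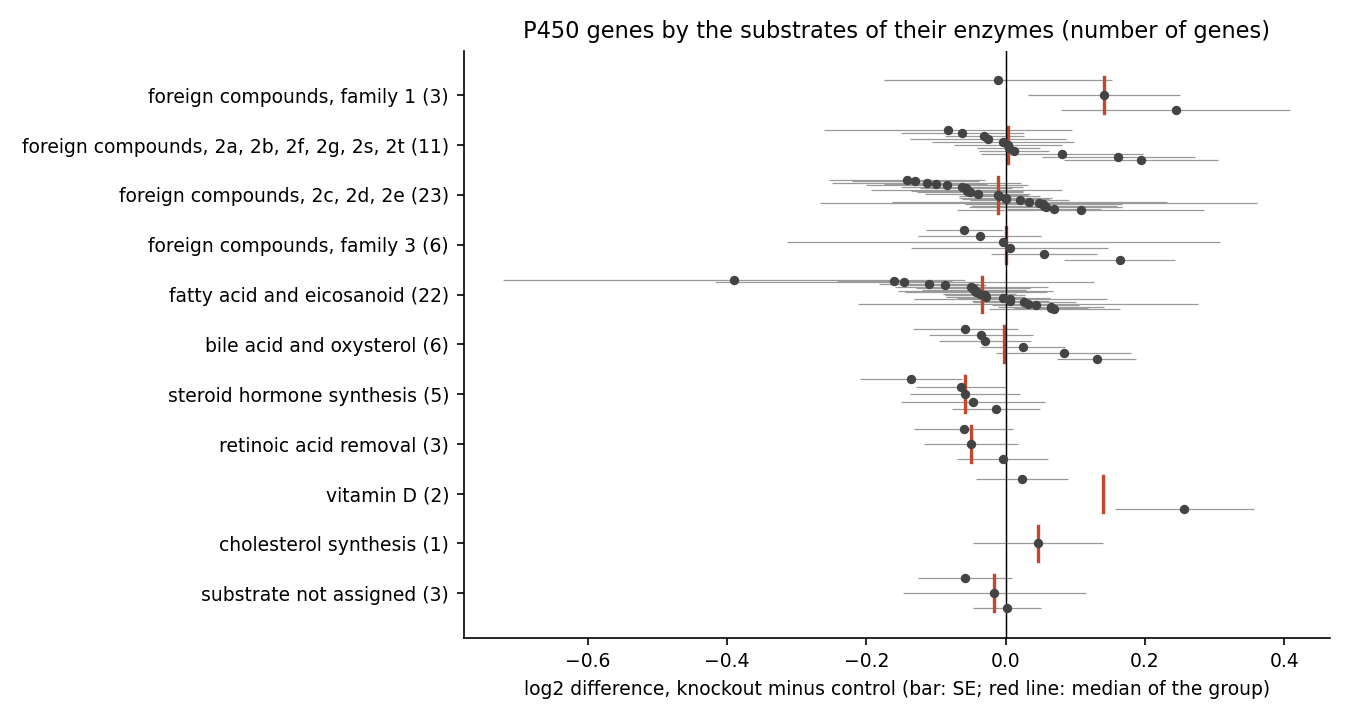
The 85 P450 genes in groups by the substrates of their enzymes (vertical axis, number of genes in parentheses), each at its log2 difference, knockout minus control (horizontal axis), with the SE as a bar. A red line is the median of a group. The medians of the groups of 5 or more genes lie between -0.058 and 0.0030, and the point far to the left is Cyp4f18 at -0.39.

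The larger differences lay between single mice. The median SD over the 8 mice was 0.118 for the P450 genes and 0.0977 for all clusters, and 5 genes, picked after their values were seen, had an SD of 0.38 to 0.56. Each of them had 1 control far from the rest, and a list of cell type markers with its extreme in the same mouse is given beside each. These lists were matched to the genes after the values were seen, and other lists shared the mouse. Control 1 was also highest in the mean of mature OSN markers (11.59) and of only 2 red blood cell markers of 7 listed (10.31). Control 2 was highest in that of club and goblet cell markers (11.36), and control 4 was also lowest in that of gland markers (10.45). Cyp4f18, which breaks down leukotriene B4 in neutrophils, read 9.10 in control 2 and between 7.44 and 7.73 in the other controls, and between 7.42 and 7.69 in the knockouts. Its difference of -0.39 ± 0.33 was -0.0042 ± 0.089 without control 2. The mean of 14 immune cell markers was 10.06 in control 2 and between 9.04 and 9.23 in the other 7 mice, and control 2 was highest in 13 of the 14. Among them S100a8 of neutrophils read 10.31 in control 2 and at most 8.31 elsewhere. The part of immune cells in the Cyp4f18 value was not tested.

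Cyp2e1, which oxidises ethanol and small solvents, read 8.99, 7.69, 7.54 and 7.54 in the controls and 7.86, 8.34, 7.79 and 7.94 in the knockouts. Cyp3a13 read 9.47, 7.97, 7.96 and 8.36 in the controls and 8.26, 8.61, 8.25 and 8.63 in the knockouts. Control 1 was highest in both. The mean of 17 markers of Bowman's glands and other nasal glands was 11.75 in control 1 and between 10.45 and 11.05 in the other mice, and control 1 was highest in 7 of the 17. The secreted odorant-binding protein gene Obp1a read 13.51 in control 1 and between 7.81 and 10.01 elsewhere. With all mice the differences were 0.047 ± 0.31 for Cyp2e1 and -0.0032 ± 0.31 for Cyp3a13. Without control 1 they were 0.40 ± 0.13 (limma, adjusted p = 0.621) and 0.34 ± 0.14 (limma, adjusted p = 0.625), both at an unadjusted p under 0.05. With Y-linked signal in the model and all mice they were -0.37 and -0.41, neither at an unadjusted p under 0.05. Control 1 was the only control with low Y-linked signal, beside knockouts 1, 2 and 4. Without it genotype and Y-linked signal could hardly be told apart. The values with Y-linked signal in the model lean on control 1 and on knockout 3, the only knockout with high Y-linked signal. The part of gland tissue in these values was not tested.

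The promoters of this pair are shown because the genes shared their highest mouse. Cyp2e1 lies on the plus strand at chr7:140763569-140763868 and Cyp3a13 on the minus strand at chr5:137921570-137921869, in the same RefSeq table and layout as above.
Cyp2e1: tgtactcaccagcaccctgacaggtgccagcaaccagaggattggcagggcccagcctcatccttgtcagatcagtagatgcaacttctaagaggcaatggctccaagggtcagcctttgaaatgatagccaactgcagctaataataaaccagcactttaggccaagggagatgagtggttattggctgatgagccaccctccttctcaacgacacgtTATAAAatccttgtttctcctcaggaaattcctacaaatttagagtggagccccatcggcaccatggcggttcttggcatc
Cyp3a13: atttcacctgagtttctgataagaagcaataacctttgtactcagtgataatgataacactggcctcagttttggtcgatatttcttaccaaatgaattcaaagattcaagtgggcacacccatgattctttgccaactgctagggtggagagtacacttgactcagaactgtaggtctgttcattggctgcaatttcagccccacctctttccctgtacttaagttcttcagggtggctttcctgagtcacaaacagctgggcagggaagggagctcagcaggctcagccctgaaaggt
The Cyp2e1 window holds TATAAA, in capitals, 31 bases before the start, and the Cyp3a13 window holds none of the motifs searched.

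Cyp4a12a and Cyp4a12b, which hydroxylate the end of fatty acids, are near-identical relatives whose probes may share signal. Cyp4a12a read 8.74, 8.81, 9.04 and 7.69 in the controls and 8.28, 8.28, 8.37 and 8.77 in the knockouts. Cyp4a12b read 9.96, 9.82, 10.01 and 8.90 in the controls and 9.58, 9.52, 9.64 and 10.08 in the knockouts. Control 4, the mouse without Cre, was lowest in both. It was also lowest in the mean of 9 markers of ciliated respiratory cells, at 9.67 beside 9.86 to 10.10 in the other mice, and in 6 of the 9 genes. The differences were -0.15 ± 0.27 for Cyp4a12a and 0.032 ± 0.24 for Cyp4a12b. Without control 4 they were -0.44 ± 0.13 (limma, adjusted p = 0.949) and -0.22 ± 0.13. The part of ciliated cells was not tested.

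**Figure D4:**
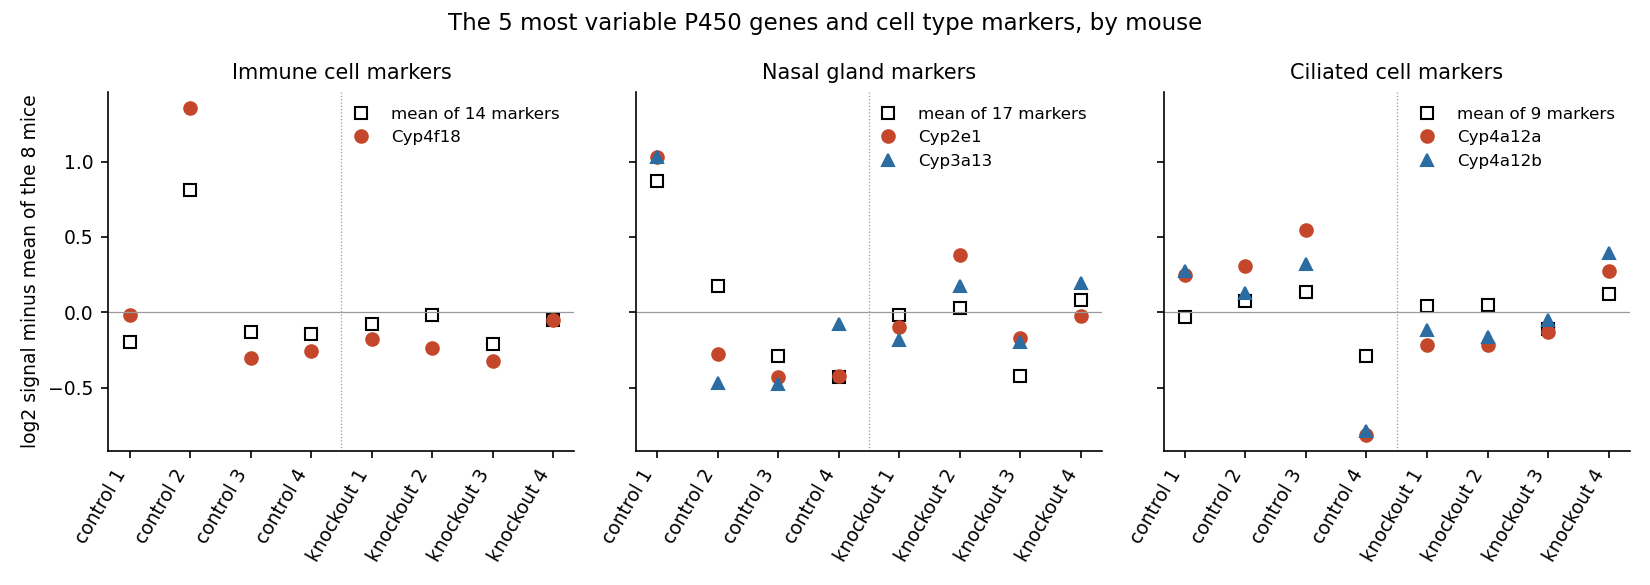
Log2 signal minus the mean of the 8 mice (vertical axis) for the 5 most variable P450 genes (filled points) and for the mean of a list of cell type markers (open squares), mouse by mouse (horizontal axis), with the controls left of the dotted line. Control 2 is highest on the left, control 1 in the middle, and control 4 is lowest on the right, for the genes and for the markers alike.

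Some mice held more extremes of the P450 genes than others. Control 3 was the highest mouse for 21 of the 85 genes (24.7%), beside 15.3% of all clusters, and knockout 2 for 15 (17.6%), beside 8.21% of all clusters. Control 1 was the lowest mouse for 19 genes (22.4%, beside 16.7%) and knockout 4 for 16 (18.8%, beside 9.57%). The mean over all 85 genes lay between 7.35 and 7.42 in every mouse.

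The genes of the machinery around P450 enzymes were read beside them. Of 17 genes for the electron and heme partners of P450 enzymes (of 22 listed), 10 had a lower and 7 a higher mean in the knockouts. At an unadjusted p under 0.05 there was 1 gene, beside 2.55% of all clusters lower and 2.62% higher. Cyb5a, the cytochrome b5 of the endoplasmic reticulum, was the brightest at 12.89 and differed by 0.018 ± 0.047. The gene with the smallest p was Cyb5r1, a cytochrome b5 reductase, which read 10.07, 10.02, 10.01 and 10.09 in the controls and 10.09, 10.20, 10.34 and 10.23 in the knockouts. All 4 knockouts lay above all 4 controls, which held for 1.62% of all clusters, and the nearest pair all but touched. The difference was 0.17 ± 0.06 (limma, adjusted p = 0.891). Of 27 receptors and factors that control P450 genes (of 29 listed), 1 had an unadjusted p under 0.05, beside the same shares of all clusters. This was Rarb, the retinoic acid receptor gene, at 10.85 in the controls and 11.02 in the knockouts (0.16 ± 0.06, limma, adjusted p = 0.890). Nfib, a nuclear factor I gene, was the brightest at 12.60 and differed by 0.057 ± 0.040.

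Enzymes that act beside or after P450 enzymes made up the remaining lists. Of 30 other oxidising and hydrolysing enzymes (of 32 listed), 18 were higher and 12 lower on average and 0 had an unadjusted p under 0.05. Cbr2, a carbonyl reductase of sustentacular cells, read between 14.03 and 14.17 in the controls and between 13.93 and 14.07 in the knockouts (-0.076 ± 0.051). Aldh3b1 had the smallest p, at 10.75 in the controls and 10.55 in the knockouts (-0.20 ± 0.10, limma, adjusted p = 0.910), and its highest mouse was control 2 at 11.06. Of 31 conjugating and glutathione-using enzymes (of 38 listed), 20 were higher and 11 lower on average. Mgst3, a microsomal glutathione transferase, was the 1 gene with an unadjusted p under 0.05, at 11.06 in the controls and 10.92 in the knockouts (-0.15 ± 0.06, limma, adjusted p = 0.910). Over all clusters 2.55% were lower and 2.62% higher at that p. Gpx6, an olfactory glutathione peroxidase, was the brightest at 13.67 and differed by -0.040 ± 0.16.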

How the data were processed

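Microarrays of the Affymetrix Mouse Gene ST design read RNA from the olfactory mucosa of 8 mice (4 knockouts, 4 controls). Each deposited value is the log2 signal of a transcript cluster, the row of the array. Affymetrix Expression Console is named in the submitters' notes on processing, and the version and the summarisation algorithm are not given in the sources used here. The signals were neither transformed nor normalized again. Genes were named from the platform annotation: 1621 clusters had several symbols and 12147 had none there.

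Knockouts were compared with controls by limma 3.58.1 in R 4.3.3 (lmFit and eBayes, two-sided), with Benjamini-Hochberg adjustment over the 21789 clusters with 1 symbol at a threshold of 0.05. The 95% intervals came from the same fit. The methods' t-test, 4 scalings and filters, array weights, a Y-linked covariate, adjustment over all clusters and fits without each mouse were alternatives. Replicate numbers follow accession order and pair no mice, and litters are not labelled, so neither entered a model. The test was checked on simulated data.

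Genes named are the 12 with the highest mean signal, in each substrate group and each list of partner genes the brightest and the one of smallest p, and the 5 of smallest p in each direction. Others were chosen after their values were seen. The P450 genes, gene lists and tests were chosen with earlier results of these data known.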

Additional observations from a re-analysis of the deposited data

Results flagged for a closer look

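Within a group of 4 mice, a single mouse lay far from the other 3 in 9 of 86 groups tested (Dixon's test at 95%). Chance gives about 1 in 20 groups, a share that does not hold for the 5 most variable P450 genes among them, which were picked for their spread. Among the P450 genes, knockout 2 was highest in Cyp2g1 at 14.29 beside 14.21 to 14.22 in the other knockouts. Cyp20a1 was highest in control 4 among the controls, at 10.48 beside 10.33 to 10.35, and in knockout 3 among the knockouts, at 10.44 beside 10.36 in the other 3. Knockout 1 was lowest in Cyp4f13 at 9.97 beside 10.17 to 10.21. Control 1 was highest in Cyp2e1 at 8.99 beside 7.54 to 7.69. Knockout 3 was lowest in Cyp2r1 at 7.36 beside 7.71 to 7.77. In the means of marker lists, knockout 3 was lowest in club and goblet cell markers at 10.04 beside 10.43 to 10.50, control 2 was highest in immune cell markers at 10.06 beside 9.05 to 9.12, and knockout 2 was highest in liver genes that are not P450 genes at 7.35 beside 7.23 in the other knockouts.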

How the results depend on the processing

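In all 16 alternatives 0 P450 genes passed the adjusted limma test, and the lowest adjusted p of a P450 gene was 0.394. The counts at an unadjusted p under 0.05, 0 lower and 2 higher, moved by at most 3 genes. Genes higher numbered 1 with arrays scaled to the mature OSN markers, after quantile normalization, among clusters above the median signal only, and with all clusters tested, and 0 by the methods' t-test. With Y-linked signal as a covariate 0 were higher and 2 lower, and with array weights 2 were lower. Leaving out 1 mouse at a time gave 0 to 4 higher and 0 to 3 lower. There were 4 higher without control 1, 3 lower without control 2, and 1 higher without control 2, knockout 1 or knockout 4. Without control 4 or without knockout 2 there were 0 higher and 1 lower. The shares of all clusters at that p in these alternatives are not given here. Genes with a lower mean (49) numbered 13 with arrays scaled to the mature OSN markers, where the median difference was 0.053 (0.067 over all clusters), and 8 of the 15 tested above the median signal. Without 1 mouse they numbered 44 to 57, with a median between -0.027 and -0.0053.

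Of 417 values of 27 named P450 genes, 415 moved by less than the spread between mice. Under scaling to the mature OSN markers Cyp2g1 was at 0.069 and Cyp20a1 at 0.066. Up to 8 of the 27 changed sign in a setting, all with a difference under 0.15 in size. No paired analysis was possible because the labels number no replicates across groups. Averaging the rows of a gene was not run, since no gene had several. Scaling moved signs of differences near 0, and at dim signals the arrays limit what could be seen.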

Other observations

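Other enzymes of the same chemistry, picked here after their values were seen, had their extremes in the mice where the most variable P450 genes had theirs. Control 1 was highest in Fmo5, a flavin monooxygenase gene, at 10.98 beside 9.34 to 10.33 in the other mice, in Adh1, an alcohol dehydrogenase gene, at 12.43 beside 11.23 to 11.99, and in the carboxylesterase gene Ces1f at 9.21 beside 7.59 to 8.40. Control 4 was lowest in the aldehyde oxidase gene Aox4 at 7.42 beside 7.76 to 8.94, and in Adh7, an alcohol dehydrogenase gene, at 10.22 beside 10.56 to 11.28. Control 4 also read 12.26 in Ttr, the transthyretin gene, beside 7.26 to 8.22 in the other mice. No explanation was tested.

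Of the other rows that named several genes, the one for Cyp4v3 and Klkb1 read between 9.95 and 10.10 in all mice, and the remaining 5, of Cyp2c, Cyp3a and Cyp4a genes, had mean signals from 4.79 to 5.91. Their differences lay between -0.088 and 0.14.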
